A study of Homo sapiens with 3 samples.

Results

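The transcripts examined here encode the NF-kB transcription factor subunits and proteins that regulate NF-kB signalling, feedback inhibitors among them. They are 10 genes taken by symbol, of 58037 genes in the count table: NFKB1, NFKB2, REL, RELA, RELB, NFKBIA, NFKBIE, NFKBIZ, TNFAIP3 and BIRC3. The cells were A375, an established human melanoma line, sequenced after 24 h in serum-free DMEM (control), in young adipocyte secretome (YA-A375) or in old adipocyte secretome (OA-A375). A secretome was serum-free DMEM that had been left on adipocytes differentiated from donor preadipocytes, so contact with adipocytes and use of the medium by them cannot be told apart. The labels do not say whether a secretome came from a single donor or from a pool, so the age group and the donor cannot be told apart. Each group had 1 library, and a total of 18089008 to 21448195 counts per library. No test across replicates was therefore possible, and none of the differences has a p-value.

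NF-kB is a family of dimeric transcription factors. In resting cells the dimers are held in the cytoplasm by IkB proteins, and signals from receptors such as those for TNF or interleukin-1 activate the IKK kinases, which mark IkB for destruction and release the dimer (canonical pathway). Receptors such as the lymphotoxin beta receptor act through the kinase NIK and the processing of p100, the NFKB2 product, which frees RelB-containing dimers (non-canonical pathway). Several inhibitors are themselves transcribed from NF-kB target genes, which closes a negative feedback loop. In melanoma NF-kB is best known for the control of chemokine, cytokine and survival genes.

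Among the 10 transcripts, the feedback inhibitor NFKBIA and the ubiquitin ligase BIRC3 stood furthest from control in OA-A375, at 4.37-fold and 8.12-fold, with TNFAIP3 at 2.84-fold, RELB at 2.49-fold and NFKB2 at 2.12-fold. In YA-A375, TNFAIP3, NFKBIA and BIRC3 were at 2.05-fold to 2.22-fold of control, whereas RELB was at 0.939-fold. RELA, which encodes the p65 subunit, was within 1.2-fold of control in both secretomes. In YA-A375 5 of the 10 genes exceeded control by at least 1.2-fold, against 17.4% of the 14413 genes tested, and 9 of the 10 in OA-A375, against 21.1%. None of the 10 was at least 1.2-fold lower than control in either secretome, where 16.4% of all genes tested were lower in YA-A375 and 21.5% in OA-A375. The YA and OA comparisons share the control library, so they are not independent of each other. The 10 genes were chosen with earlier results of these data known. Their counts beside the shares of all genes tested are therefore a description and not independent support for a response.

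Values are normalised counts, which are raw counts divided by a size factor for the library (1.06 for both control and YA-A375, 0.891 for OA-A375). A fold is a ratio of normalised counts, and the range after it is its exact 95% counting interval (Clopper-Pearson). Such intervals cover counting error only and set a pair of libraries against each other, so variation between cultures is not in them. Amplified reads do not each stand for a molecule, so the intervals may be too narrow even for counting error. A gene was tested if its mean normalised count over the 3 libraries was at least 20, and all 10 genes passed, each also without the OA library. A threshold of 1.2-fold was used for all genes. In bulk RNA, fewer cells with a transcript and less of it per cell cannot be told apart.

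Promoter sequence is shown first for the genes in which the kappa-B consensus, the 10-base DNA motif that NF-kB dimers bind, was found in the 250 bases before an annotated start. Sequences are from RefSeq (GRCh38.p14), 5′ to 3′ on the strand of the gene, in lower case with the letters of the consensus in capitals. Both strands were searched. RefSeq promoter entries were matched for 8 of the 10 genes, with 13 start sites, and RELB and NFKBIE had no entry. The consensus was present in 9 of the 13 windows (69.2%) and in 7 of the 8 genes (87.5%), RELA being the exception. Over all genes it was present in 9.96% of 35116 windows and in 11.8% of 27305 genes. The windows of the 10 genes had a median GC content of 68.4%, against 58% for all windows, and the part of base composition in these shares was not tested. The same holds for the choice of genes, several of which are known NF-kB targets, and for their larger number of windows per gene. A match is a description of the letters and not a measured binding site.

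The stretch of promoter up to the first annotated exon is shown for NFKBIA and BIRC3 because their transcripts were the furthest from control in OA-A375. The NFKBIA stretch lies on the minus strand at chr14:35404750-35404999 and held a match from 81 to 72 bases before the start. The BIRC3 stretch lies on the plus strand at chr11:102317234-102317449 and held matches from 199 to 190 and from 135 to 126 bases before the start.
NFKBIA promoter: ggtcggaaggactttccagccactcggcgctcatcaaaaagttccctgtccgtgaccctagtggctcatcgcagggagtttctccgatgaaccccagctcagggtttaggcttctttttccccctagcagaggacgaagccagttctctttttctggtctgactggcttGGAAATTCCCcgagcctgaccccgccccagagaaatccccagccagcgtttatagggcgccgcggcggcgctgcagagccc
BIRC3 promoter: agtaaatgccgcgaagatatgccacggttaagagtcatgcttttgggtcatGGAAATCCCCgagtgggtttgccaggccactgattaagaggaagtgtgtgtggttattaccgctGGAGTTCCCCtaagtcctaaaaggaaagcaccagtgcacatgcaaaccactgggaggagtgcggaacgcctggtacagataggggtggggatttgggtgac

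For the other genes, 30 bases around a match are shown, so that the motif can be compared between genes whose transcripts differed in response. NFKB1 and the first start site of NFKBIZ carried the same 10 letters, and the second site of NFKBIZ had other letters, while their transcripts were at 0.991-fold and 1.25-fold of control in YA-A375 and at 1.21-fold and 1.37-fold in OA-A375. REL had a run in which the consensus was read once on each strand, and TNFAIP3 had matches next to each other on the strand opposite to the gene. NFKB2 had matches at 2 of its 3 start sites, and the site nearest to a start is shown. The sites of NFKB1, REL and TNFAIP3 and the second of NFKBIZ lie within exons of the GENCODE annotation, which starts some transcripts further upstream.
NFKB1 at chr4:102501300-102501329: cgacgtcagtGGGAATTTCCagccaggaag
NFKB2 at chr10:102395674-102395703: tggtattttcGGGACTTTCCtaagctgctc
REL at chr2:60881518-60881547: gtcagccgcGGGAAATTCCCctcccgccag
NFKBIZ at chr3:101827757-101827786: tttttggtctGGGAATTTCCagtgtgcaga
NFKBIZ at chr3:101849265-101849294: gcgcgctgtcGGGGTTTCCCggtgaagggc
TNFAIP3 at chr6:137867188-137867217: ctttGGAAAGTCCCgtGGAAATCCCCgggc

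The subunits were examined first. NFKB1 (chromosome 4, 102501329 to 102617302, plus strand of GRCh38) encodes p105, the precursor of the canonical subunit p50. Its normalised count was 2281 in control, 2262 in YA-A375 and 2759 in OA-A375. The OA library was the high one, at 1.21-fold of control (1.14 to 1.28), while YA was at 0.991-fold (0.937 to 1.05). With edgeR's TMM scaling the OA value fell below the 1.2-fold threshold, so this call rests on the choice of scaling.

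NFKB2 (chromosome 10, 102394110 to 102402529, plus strand) encodes p100, the precursor of p52, which both inhibits RelB and gives the non-canonical dimer. The normalised count was 1844 in control, 2280 in YA-A375 and 3911 in OA-A375, and it was thus higher with each secretome and highest in OA. The fold was 1.24 (1.16 to 1.31) in YA and 2.12 (2.01 to 2.24) in OA. OA-A375 was 1.72-fold above YA-A375 (1.63 to 1.81).

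RELB (chromosome 19, 45001430 to 45038198, plus strand) encodes the partner of p52 in the non-canonical dimer. Its normalised count was 279 in control, 262 in YA-A375 and 694 in OA-A375. Control and YA did not differ beyond counting error (0.939-fold, 0.794 to 1.11). OA alone was high, at 2.49-fold of control (2.16 to 2.87) and 2.65-fold of YA (2.30 to 3.06).

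RELA (chromosome 11, 65653596 to 65663094, minus strand) encodes p65, the main transactivating subunit of the canonical dimer. The normalised count was 2069 in control, 2133 in YA-A375 and 2319 in OA-A375. These were close together, with folds of 1.03 (0.972 to 1.09) in YA and 1.12 (1.05 to 1.19) in OA. REL (chromosome 2, 60881521 to 60931610, plus strand) encodes c-Rel, which is best known from lymphocytes and was the subunit with the fewest reads. Its normalised count was 220 in control, 254 in YA-A375 and 293 in OA-A375, or 1.16-fold (0.968 to 1.39) and 1.33-fold (1.11 to 1.6) of control. The YA and OA libraries did not differ in REL beyond counting error (1.15-fold, 0.968 to 1.37).

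**Figure D1:**
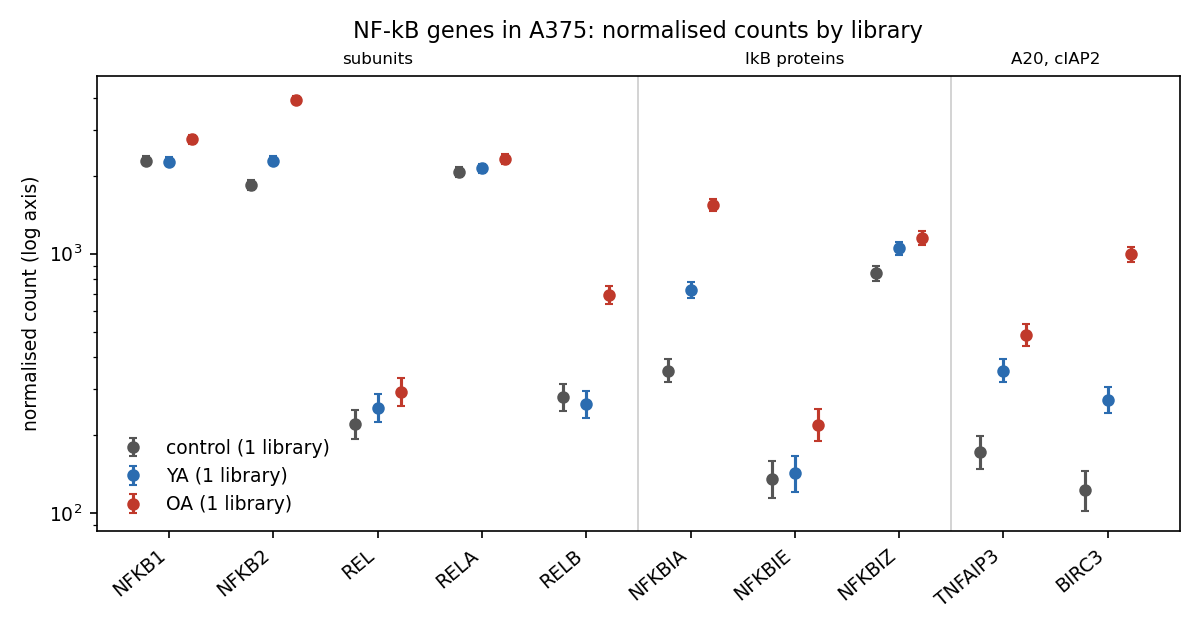
Normalised count (log axis) of each of the 10 genes in the control, YA and OA libraries, 1 library each; bars are 95% Poisson counting intervals. OA is the highest point for all 10 genes, and YA lies between control and OA for 8 of them, NFKB1 and RELB being the exceptions.

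The IkB proteins bind the dimers or, for the atypical members, act on them in the nucleus. NFKBIA (chromosome 14, 35401511 to 35404749, minus strand) encodes IkB-alpha, the inhibitor that is destroyed on activation and resynthesised within the feedback loop, and its promoter is printed above. The normalised count was 354 in control, 726 in YA-A375 and 1548 in OA-A375. The 3 libraries were well separated, with folds of 2.05 (1.81 to 2.32) in YA and 4.37 (3.90 to 4.91) in OA. OA-A375 was 2.13-fold above YA-A375 (1.95 to 2.33).

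NFKBIE (chromosome 6, 44258166 to 44265788, minus strand) encodes IkB-epsilon, a slower feedback inhibitor. It was among the genes with fewest reads, at a normalised count of 135 in control, 142 in YA-A375 and 219 in OA-A375. YA was level with control within counting error (1.05-fold, 0.831 to 1.33), and OA was at 1.62-fold (1.30 to 2.03). NFKBIZ (chromosome 3, 101827991 to 101861022, plus strand) encodes IkB-zeta, a nuclear IkB that also acts as a co-activator for a subset of target genes. Its normalised count was 841 in control, 1048 in YA-A375 and 1149 in OA-A375. Here the values of the secretomes were close, at 1.25-fold (1.14 to 1.36) and 1.37-fold (1.25 to 1.5) of control, and OA was 1.10-fold above YA (1.01 to 1.19).

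The remaining pair acts on ubiquitin chains. TNFAIP3 (chromosome 6, 137867188 to 137883312, plus strand) encodes A20, a ubiquitin-editing enzyme that ends signalling from TNF and Toll-like receptors. The normalised count was 171 in control, 353 in YA-A375 and 487 in OA-A375. Control was the low library, with YA at 2.06-fold (1.72 to 2.47) and OA at 2.84-fold (2.38 to 3.40), and OA was 1.38-fold above YA (1.2 to 1.59). BIRC3 (chromosome 11, 102317450 to 102339403, plus strand) encodes cIAP2, a ubiquitin ligase that takes part in TNF receptor signalling and in the turnover of NIK. Its normalised count was 122 in control, 272 in YA-A375 and 995 in OA-A375. That is 2.22-fold (1.80 to 2.75) in YA and 8.12-fold (6.75 to 9.84) in OA, and OA was 3.65-fold above YA (3.20 to 4.19). When all 14413 genes tested were ordered by log2 fold change in OA, BIRC3 stood at rank 25, NFKBIA at 73, TNFAIP3 at 161, RELB at 227 and NFKB2 at 357. In YA the ranks were 205 for BIRC3, 285 for TNFAIP3, 288 for NFKBIA, 2121 for NFKB2 and 8934 for RELB.

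**Figure D2:**
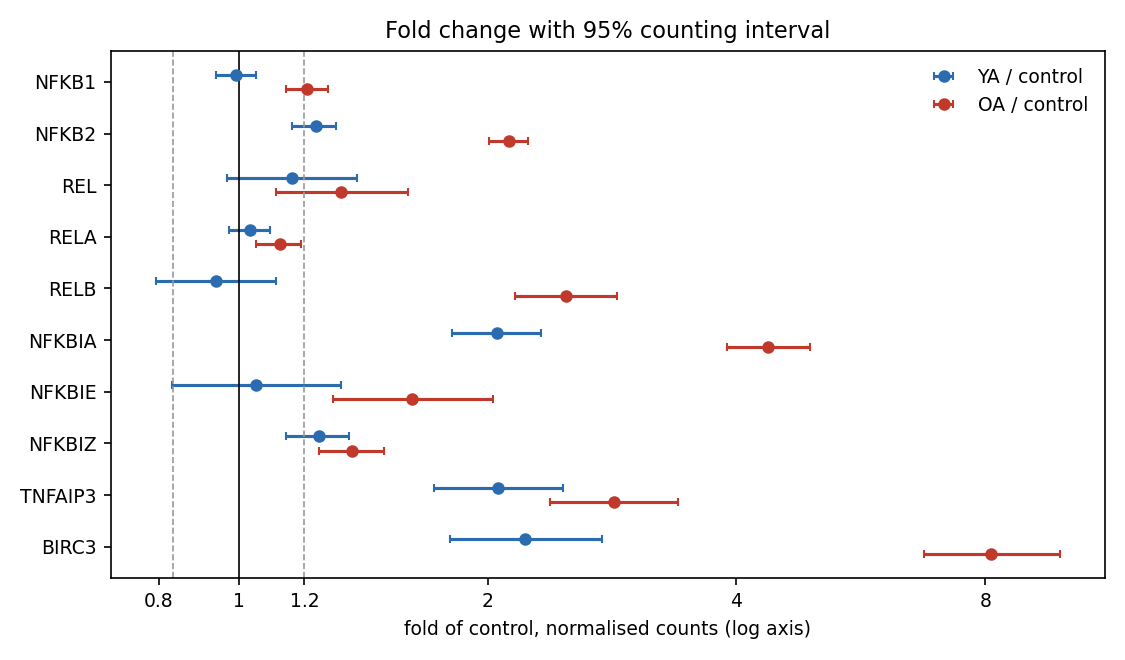
Fold of control (log axis) for YA and OA with 95% counting intervals; dashed lines mark 1.2-fold in either direction. The YA intervals lie wholly above 1.2-fold for NFKBIA, TNFAIP3 and BIRC3, and the OA intervals for these and for NFKB2, RELB, NFKBIE and NFKBIZ.

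A stricter reading asks whether the whole counting interval lies beyond 1.2-fold. In YA-A375 this held for 3 of the 10 genes (NFKBIA, TNFAIP3 and BIRC3), against 6.03% of all genes tested. In OA-A375 it held for 7, against 9.04%. At a threshold of 2-fold, 3 genes were higher in YA-A375 (2.15% of all genes) and 5 in OA-A375 (2.86%). At a log2 change of 1.2 the numbers were 0 in YA-A375 (1.21% of all genes) and 4 in OA-A375 (1.96%). The median log2 fold change of the 10 genes, with a pseudocount of 1, was 0.26 in YA-A375 and 0.89 in OA-A375, while the median of all genes tested was -0.02 and 0.01.

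The secretomes were also compared with each other. With 1 library each, a difference cannot be assigned to the age group of the adipocytes rather than to the donor or the culture. With OA as the reference, 7 of the 10 genes were at least 1.2-fold lower in YA-A375, against 21.5% of all genes tested, and none was at least 1.2-fold higher, against 23%. The interval lay wholly beyond 1.2-fold for 5 genes (9.03% of all genes), namely NFKB2, RELB, NFKBIA, NFKBIE and BIRC3. A difference of at least 2-fold was found for RELB, NFKBIA and BIRC3, which is 3 genes (3.04% of all genes), and a log2 change of 1.2 for 2 of the 10 genes (2.11% of all genes). The genes within 1.2-fold between the secretomes were REL, RELA and NFKBIZ. The median log2 fold change, YA against OA, was -0.54 for the 10 genes and -0.01 for all genes tested.

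Levels of different genes were compared as RPKM, the usual scaling of reads by exon length and library total. In control, NFKB2 was at 20.3, RELA at 18.7 and NFKB1 at 18, followed by NFKBIA at 7.39 and NFKBIZ at 7.05. Below these were RELB at 4.55, NFKBIE at 2.58, TNFAIP3 at 1.68, REL at 0.825 and BIRC3 at 0.806. The neighbours RELA and NFKB1, NFKBIA and NFKBIZ, and REL and BIRC3 did not differ beyond counting error, the last only with the full exon length of REL (1.45 with the reduced length). In YA-A375 the order began with NFKB2 at 25.2, RELA at 19.4, NFKB1 at 17.9 and NFKBIA at 15.2. In OA-A375 NFKBIA (32.1) stood between NFKB2 (43.0) and the neighbours NFKB1 (21.7) and RELA (20.9), which did not differ beyond counting error. RELB reached 11.3 and BIRC3 6.52 in OA-A375, where BIRC3 was above TNFAIP3 (4.75), NFKBIE (4.18) and REL (1.10).

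As a share of the summed reads per kilobase of the 5 subunits, NFKB2 took 32.6% in control (31.4 to 33.7), 37.2% in YA-A375 (36.1 to 38.4) and 43.9% in OA-A375 (42.8 to 44.9). RELB took 7.28% (6.53 to 8.10), 6.32% (5.64 to 7.06) and 11.5% (10.7 to 12.4). The non-canonical pair therefore made up a larger part of the subunit reads in OA-A375 than in control. The share of RELA was 30% (28.9 to 31.1) in control, 28.6% (27.6 to 29.6) in YA-A375 and 21.3% (20.5 to 22.2) in OA-A375, although its own normalised count was not lower there. NFKB1 went from 28.9% (27.9 to 29.9) to 26.5% (25.5 to 27.4) and 22.2% (21.4 to 23.0). REL was between 1.12% and 1.41%, or 1.96% to 2.47% with its length reduced by exon bases shared with another gene. These levels depend on the length used: with the longest transcript in place of all exons, RELA (34.4%) stood above NFKB2 (28.6%) in control, and NFKB2 (39.8%) above RELA (25.3%) in OA-A375.

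The summed reads per kilobase of the IkB genes NFKBIA, NFKBIE and NFKBIZ were set against those of the subunits in each library. Only IkB genes among the 10 were summed, so NFKBIB, BCL3 and NFKBID were left out. NFKBIB was at 471, 435 and 475 normalised counts in control, YA-A375 and OA-A375, while BCL3 and NFKBID were higher with both secretomes. The intervals of the ratio, like those of the shares, are normal approximations on the log scale to counting error. The ratio was 0.272 in control (0.256 to 0.290), 0.394 in YA-A375 (0.374 to 0.416) and 0.469 in OA-A375 (0.447 to 0.491). The intervals of the 3 libraries did not overlap. Because p105 and p100 also carry IkB-like repeats, the ratio was repeated without NFKB1 and NFKB2 among the subunits, and it was then 0.706, 1.09 and 1.38.

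**Figure D3:**
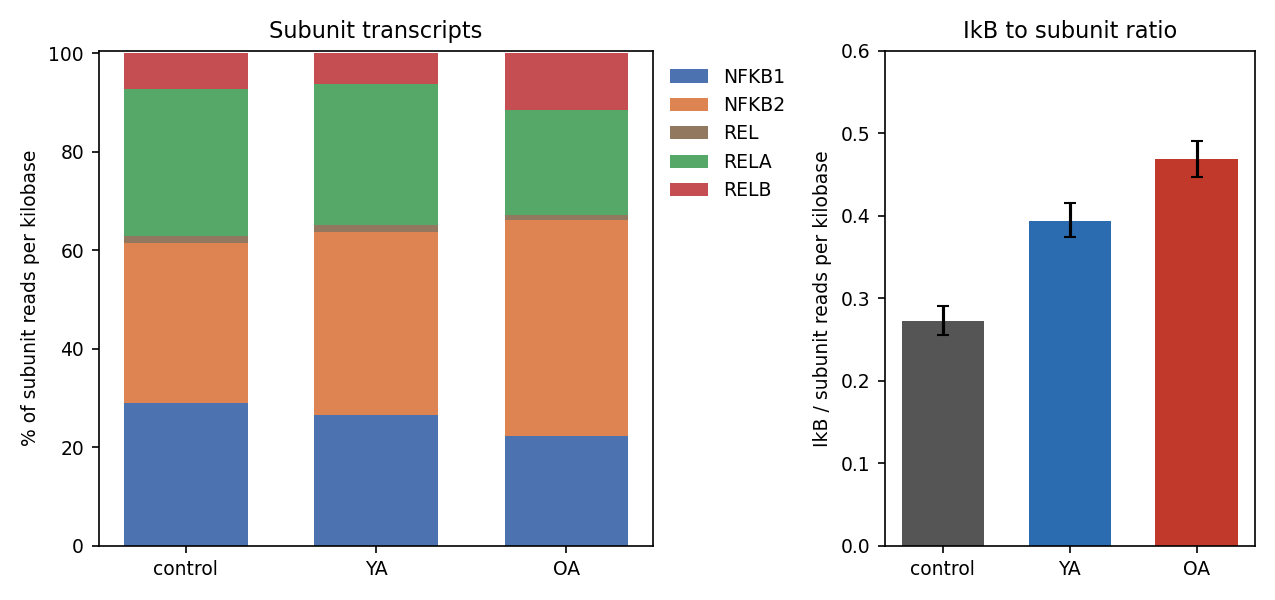
Left, the share of each subunit in the summed subunit reads per kilobase of exon (%), stacked per library. Right, the ratio of IkB (NFKBIA, NFKBIE and NFKBIZ) to subunit reads per kilobase with 95% counting intervals, lowest in control (0.272) and highest in OA (0.469).

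The other genes of the pathway were then described list by list, with the same threshold and the same background shares. Over all genes tested, 17.4% were higher and 16.4% lower in YA-A375, and 21.1% higher and 21.5% lower in OA-A375. The other IkB proteins followed in part. BCL3, a nuclear IkB that binds p50 and p52 dimers, had a normalised count of 216 in control, 283 in YA-A375 and 414 in OA-A375, or 1.31-fold (1.10 to 1.56) and 1.92-fold (1.62 to 2.27). NFKBID, another nuclear IkB, was at 46.2, 90.7 and 81.9, or 1.97-fold (1.38 to 2.83) in YA and 1.77-fold (1.22 to 2.60) in OA. The third gene of the list, NFKBIB, was within 1.2-fold of control in both.

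Of 12 kinases tested, 0 were higher and 1 lower in YA-A375, and 2 were higher and 1 lower in OA-A375. The numbers higher were below the shares over all genes tested, 17.4% in YA-A375 and 21.1% in OA-A375. MAP3K14, which encodes NIK, was the kinase lower in both, at 398, 330 and 287 normalised counts in control, YA-A375 and OA-A375. Its folds were 0.829 (0.718 to 0.958) and 0.723 (0.616 to 0.846), neither interval wholly beyond 1.2-fold. IKBKE, an IKK-related kinase, had a normalised count of 276 in control, 276 in YA-A375 and 442 in OA-A375 (1.6-fold, 1.37 to 1.87). Most kinases were within 1.2-fold of control, and the list median of log2 fold changes was -0.02 for YA and 0.04 for OA.

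Receptors went both ways. Of 16 tested, 6 were higher and 3 lower in YA-A375, and 7 were higher and 4 lower in OA-A375. TLR1 passed the minimum mean through its OA count only, and without it 6 of 15 were higher in OA-A375. It was also among the 3 lower in YA-A375, at 16 raw counts against 25 in control. TNFRSF1A, the main TNF receptor, was at 3771 normalised counts in control, 5256 in YA-A375 and 6397 in OA-A375 (1.39-fold, 1.34 to 1.45, and 1.70-fold, 1.63 to 1.77). LTBR, the lymphotoxin beta receptor, was at 2889, 3854 and 3932, close to each other in the secretomes. IL18R1, a chain of the interleukin-18 receptor, was at 45.2, 48.2 and 148, high in OA alone (3.28-fold of control, 2.34 to 4.66). TNFRSF1B, the second TNF receptor, was higher than control in YA (1.47-fold, 1.25 to 1.73) and lower in OA (0.646-fold, 0.522 to 0.797). IL1RAP, the shared chain of interleukin-1 family receptors, was lower in OA (0.661-fold, 0.589 to 0.743) with YA at 1.16-fold (1.05 to 1.27). TLR4 and the death receptor TNFRSF21 were lower in YA, at 0.652-fold (0.611 to 0.696) and 0.639-fold (0.613 to 0.666), with OA at 0.892-fold and 1.15-fold.

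Among 26 adaptors and ubiquitin ligases, 2 were higher and 5 lower in YA-A375, and 6 were higher and 3 lower in OA-A375. The numbers higher were near or below the shares over all genes tested (17.4% in YA-A375, 21.1% in OA-A375). TRAF1, an adaptor that is itself a known NF-kB target, went the other way from BIRC3, to which its product binds. Its normalised count was 787 in control, 453 in YA-A375 and 310 in OA-A375 (0.575-fold, 0.513 to 0.645, and 0.394-fold, 0.342 to 0.452). MYD88, the adaptor of Toll-like and interleukin-1 receptors, was at 956, 713 and 652, and so lower with both secretomes. IRAK2, a kinase-like protein downstream of MYD88, was at 131, 145 and 394, high in OA alone (3.01-fold, 2.46 to 3.69). RIPK2, the adaptor kinase of NOD receptors, was at 1.55-fold in OA (1.38 to 1.74). TRAF3, which holds NIK down in the non-canonical pathway, was at 0.801-fold in YA (0.729 to 0.881) and 1.21-fold in OA (1.10 to 1.32). The OA value of TRAF3 fell below the threshold with TMM or total-count scaling. RBCK1, part of the linear ubiquitin ligase, was at 1.26-fold in YA (1.19 to 1.33) and 0.893-fold in OA (0.836 to 0.953).

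Of 16 other feedback regulators, 2 were higher and 0 lower in YA-A375, and 2 were higher and 2 lower in OA-A375. These numbers were below the shares over all genes tested in both directions. ZC3H12A, which encodes the RNase Regnase-1 that degrades cytokine transcripts, was at 128 normalised counts in control, 266 in YA-A375 and 381 in OA-A375. Its folds were 2.07 (1.68 to 2.56) and 2.97 (2.43 to 3.65), close to those of TNFAIP3. TNIP1, which encodes an A20-binding protein, was at 1911, 2048 and 3355, high in OA alone (1.76-fold, 1.66 to 1.86). ITCH, a ubiquitin ligase that works with A20, was at 0.746-fold in OA (0.681 to 0.816). SPATA2, which links the deubiquitinase CYLD to the receptor complex, was at 1.27-fold in YA (1.15 to 1.41) and 0.814-fold in OA (0.721 to 0.919).

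**Figure D4:**
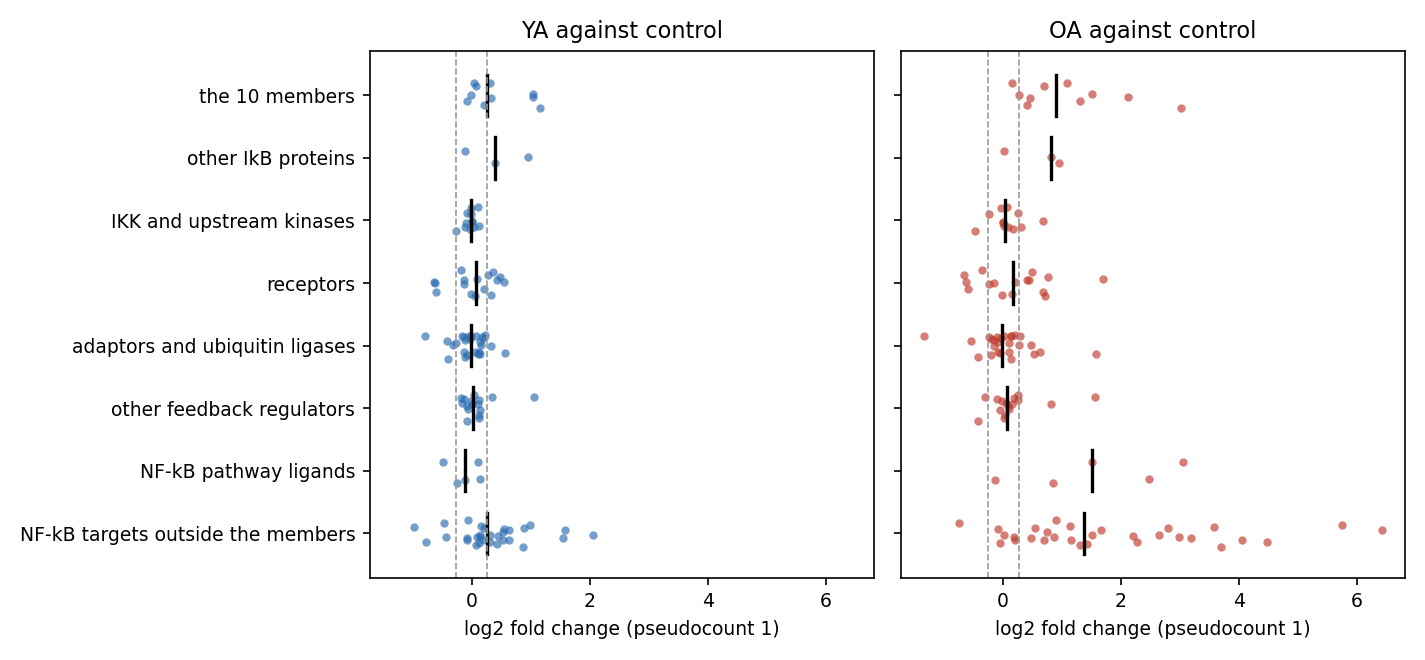
Log2 fold change against control (pseudocount 1) for YA (left) and OA (right), each point a gene that passed the minimum mean count, by list; black lines are list medians and dashed lines mark 1.2-fold. In OA the medians of the 10 genes (0.89), the other IkB proteins (0.81), the ligands (1.51) and the targets (1.37) lie right of the threshold, the last lists being at 1.66 and 1.15 without genes that passed through OA only, while those of the kinases (0.04) and the adaptors (-0.01) lie near 0.

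Ligands were few. Of 17 ligand genes in the list, 5 passed the minimum mean count, 0 were higher and 1 lower in YA-A375, and 4 were higher in OA-A375, TNFSF13B passing through its OA count only. IL1B was at 145 normalised counts in control, 103 in YA-A375 and 1207 in OA-A375 (8.32-fold of control, 7.02 to 9.91), and IL1A at 173, 190 and 971 (5.60-fold, 4.77 to 6.60). Both cytokines were high in OA alone. TNF had 0 counts in control, 0 in YA-A375 and 4 in OA-A375, so no level could be given for it.

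Of 40 NF-kB target genes outside the 10, 30 passed the minimum mean count. In YA-A375, 15 were higher and 4 lower, and in OA-A375, 24 were higher and 1 lower. Like the other lists, this list was chosen with earlier results of these data known. Its counts are therefore not separate support for the 10 genes. IL6, BCL2A1, LCN2 and MMP9 passed only through the OA library, and without these 4, 20 of 26 were higher in OA-A375. Their YA calls rest on few reads. IL6 (5 raw counts in control and 10 in YA-A375), LCN2 (9 and 29) and MMP9 (1 and 3) are among the 15 higher. BCL2A1 (5 and 2) is among the 4 lower. CXCL8, a neutrophil chemokine, was at 378 normalised counts in control, 468 in YA-A375 and 8445 in OA-A375 (1.24-fold, 1.08 to 1.42, and 22.3-fold, 20.2 to 24.8). C3, the central complement component, was by contrast high with both secretomes, at 856, 3571 and 5357 (4.17-fold, 3.88 to 4.49, and 6.26-fold, 5.83 to 6.73). CXCL2, another neutrophil chemokine, was at 40.5, 120 and 378. LCN2, an iron-siderophore-binding protein, was at 8.48, 27.4 and 809, with a fold of 95.4 in OA (50 to 210).

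In YA-A375 11 of the 30 targets were within 1.2-fold of control, and some targets were lower in at least 1 secretome. IER3, an immediate early response gene, was at 4944 normalised counts in control, 3568 in YA-A375 and 2960 in OA-A375, or 0.722-fold (0.692 to 0.753) and 0.599-fold (0.571 to 0.627). CCND1, which encodes cyclin D1, was lower in YA (0.741-fold, 0.723 to 0.760) and at 1.14-fold in OA (1.12 to 1.17). BCL2L1, which encodes the survival protein BCL-xL, was at 1.45-fold in YA (1.34 to 1.57) and 0.943-fold in OA (0.863 to 1.03). With OA as the reference, 2 of the 30 targets were higher and 25 lower in YA-A375, against 23% and 21.5% of all genes tested. For the 5 ligands these numbers were 0 and 4. Without the genes that passed the minimum mean through OA only, whose direction here the filter fixed, 21 of 26 targets and 3 of 4 ligands were lower.

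The label of the cells was checked against marker genes. The 10 melanoma and neural crest markers summed to 611 to 730 CPM (counts scaled to the library total), of which MITF (1221, 764 and 881 counts in control, YA and OA) and S100B (843, 591 and 550) made up 10.4% to 13.8%. SOX10 had 0 counts in every library, TYR and DCT had at most 2, PMEL 2 to 10 and MLANA 16 to 22. Most of the sum came from other genes of the list, so the sum does not measure the level of these markers. The 8 adipocyte markers summed to 96.3 CPM in control, 129 in YA-A375 and 92.2 in OA-A375, with 2 to 4 of the 8 at 3 counts or fewer. PPARG took most of the sum (1608, 1964 and 1530 counts), LPL was at 353, 583 and 30, LIPE at 79, 153 and 67, and CIDEC at 6, 31 and 36, while ADIPOQ and LEP, which define adipocytes, had at most 1 count. The 8 macrophage and leukocyte markers summed to 15.6, 12.9 and 8.90 CPM, most of it from ITGB2 (161, 99 and 57 counts) and LYZ (148, 143 and 86), while PTPRC and TYROBP had at most 1 count. The 8 fibroblast markers summed to 34.8, 44.4 and 30.6 CPM, within which DCN was high in YA-A375 (13, 138 and 24 counts) and PDGFRA low there (76, 20 and 51). The 5 endothelial markers summed to 11.5, 11.7 and 5.80 CPM. The part of other cell types in the levels of the 10 genes was not tested.

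Overlapping annotation touches 3 of the 10 genes. REL shares 5702 exon bases on the same strand with AC010733.2, which had 0 counts in every library, and TNFAIP3 shares 95 with the antisense gene AL357060.1, which had 18 to 26 counts. RELA shares 9 bases with AP001362.2. The use of strand in counting is not given in the sources used here, so reads of antisense partners could not be told apart. With its length reduced by the shared bases, REL was at 1.45, 1.69 and 1.93 RPKM in control, YA-A375 and OA-A375, where BIRC3 was at 0.806, 1.80 and 6.52.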

How the data were processed

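Poly(A) RNA of 3 A375 cultures was sequenced. The deposited values are whole-number counts for each gene that the authors had not normalised. The submitters' processing notes name STAR 2.5.1b, featureCounts, R 3.6.1 and hg38. The annotation release and the use of strand are not given in the sources used here. The series gives an exposure of 24 h, while the sample labels name a span that starts there and runs longer. Size factors were computed with DESeq2 1.42.0 in R 4.3.3, over all 3 libraries, and TMM factors with edgeR 4.0.16. Folds, intervals and figures were made in Python 3.11.15 (numpy 2.4.6, pandas 2.3.3, scipy 1.17.1, matplotlib 3.10.9). With 1 library per group no quasi-likelihood test was run. The study's cutoff, written as 1.2, was read as a linear fold, with log2 as an alternative. The 10 genes and all lists were chosen with earlier results of these data known. From each list, up to 2 genes per comparison and direction were named by the interval bound furthest beyond 1.2-fold. NFKBIB, MAP3K14, TNF, TNFSF13B, TLR1, IL6, BCL2A1 and MMP9 were named outside that rule, after their values were seen. Positions are from GENCODE 29, matched by identifier without version (57433 of 58037). The procedure was tested on simulated Poisson counts with known changes and no variation between cultures. The intervals assume the same model, so the test does not cover such variation. The alternatives were other scalings, filters, pseudocounts, thresholds and gene lengths.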

Additional observations from a re-analysis of the deposited data

How the results depend on the processing

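No paired analysis was possible because each group has 1 library, and for the same reason no library could be left out. Scaling by TMM or by the total count changed no direction, and the counts of the 10 genes and of the pathway lists stayed within 1.5-fold. Dropping the filter, a minimum mean of 100 and a pseudocount of 5 were run for the counts of the 10 genes and their median, with the same outcome. The pathway lists were not run with these. The 1.2-fold call of NFKB1 in OA-A375 was lost with TMM scaling, and that of TRAF3 with TMM and with total-count scaling. Counts of genes followed the threshold by construction. Percentages here are shares of all genes tested. Higher in YA-A375 were 3 of the 10 genes at 2-fold (2.15%), 3 with the interval wholly beyond 1.2-fold (6.03%) and 0 at a log2 change of 1.2 (1.21%). Higher in OA-A375 were 5 at 2-fold (2.86%) and 4 at a log2 change of 1.2 (1.96%). Lower in YA-A375 than in OA-A375 were 3 (3.04%) and 2 (2.11%). Without NFKB1 and NFKB2, the ratio of IkB to subunit reads per kilobase was 0.706 in control, 1.09 in YA-A375 and 1.38 in OA-A375, higher by construction and in the same order. With the longest transcript as length, the shares in control were 28.6% for NFKB2, 1.03% for REL, 34.4% for RELA and 6.43% for RELB. In YA-A375 they were 32.9%, 1.11%, 33% and 5.63%. In OA-A375 they were 23.5% for NFKB1, 39.8% for NFKB2, 0.905% for REL, 25.3% for RELA and 10.5% for RELB. With the length of REL reduced by its shared exon bases, an alternative chosen after seeing the data, its share was 2.30% in control, 2.47% in YA-A375 and 1.96% in OA-A375.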

Other observations

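The protein-coding genes whose pair of log2 fold changes lay nearest to the median pair of the 10 genes (0.26 in YA-A375, 0.89 in OA-A375) were sought among 10594 genes whose mean was 100 normalised counts or more. BLVRB was the nearest, at a Euclidean distance of 0.013 on the log2 scale, with 249 counts in control, 296 in YA-A375 and 385 in OA-A375. GLI2 followed at a distance of 0.022 (298, 360 and 460 counts). PDGFA stood at 0.036, LRAT at 0.041 and SETBP1 at 0.050. The likeness rests on 3 libraries and is a description only.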
